A study of Oryza sativa Japonica Group with 18 samples.

Results

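Genes of nitrate uptake and nitrogen assimilation, 7 in number, were followed through K+ starvation in rice roots: OsNRT2.2 and OsNRT2.3 (nitrate transport), OsNIA1 (nitrate reductase), OsGLN2 (glutamine synthetase), Fd-GOGAT (glutamate synthase), OsGDH2 (glutamate dehydrogenase) and OsDUR3 (urea transport). They were picked by name, with earlier results of these data known, and matched through symbol or synonym in the probe annotation. The genes make up 7 of the 17905 to which a probe set of a single gene was assigned. A probe set is the group of short array probes that reports one transcript or a few closely related ones. The 7 genes had 13 of the 57194 probe sets, and 10 of those 13 were among the 25165 brightest that were tested.

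Roots of Nipponbare, a japonica cultivar with no transgene or mutation, were hybridized to the Affymetrix rice genome array. Seedlings 2 weeks old in hydroponic culture were moved either to K+-replete solution (CK, 1 mM K+ from 0.512 mM K2SO4) or to the same solution with K2SO4 left out (LK, no K+), and both solutions supplied nitrogen as 1.427 mM NH4NO3. The LK solution therefore also held less sulfate, which other salts still supplied in both. Sampling of roots, under a light and dark cycle, took place 6 h, 3 d and also 5 d after the move, which gave 6 groups of 3 biological replicates, and each array carried RNA pooled from 5 seedlings. Values are normalized signals on a linear scale, and replicates 1, 2 and 3 are given in that order.

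Array medians lay between 22.1 and 23.4, and 33.8% of all values were under 10, so signals not far above the medians were close to background. No pair among the 18 arrays was identical (153 pairs). The root markers Lsi1 and Lsi2, silicon transporters of rice roots, had group means between 3941 and 5072, and Lsi2 was 1.15-fold lower in LK at 5 d (limma, adjusted p = 0.024). Of 7 shoot markers of photosynthesis, 6 had a probe set and 1 of those, RBCS1, stayed between 1.40 and 8.44. The sum of the 6 ranged from 2503 to 3339 in CK and 3189 to 3892 in LK at 6 h, from 5044 to 6788 and 5602 to 7082 at 3 d, and from 6058 to 6929 and 7250 to 8589 at 5 d. At 5 d, 2 of the 5 tested shoot markers were called higher in LK, against 10.5% of all tested probe sets. They were RCABP69 by 1.44-fold and OsrbcS by 4.23-fold (limma, adjusted p = 0.047 and 0.010). OsrbcS, read from the brightest of its 4 probe sets, was scattered. Its arrays gave 464, 820 and 257 in LK at 5 d, 120, 134 and 110 in CK at 5 d, and 221, 317 and 50.8 in CK at 3 d. The part of the shoot markers in the results was not tested. The clock gene OsCCA1 averaged 130, 780 and 1220 in CK at 6 h, 3 d and 5 d, so duration of treatment, age and time of day cannot be told apart. At each time limma called 1 of the 4 tested clock genes, against 0.529%, 14.3% and 23.3% of all tested probe sets. OsCCA1 was 1.38-fold higher in LK at 6 h (adjusted p = 0.0049), OsPRR1 1.25-fold lower at 3 d (adjusted p = 0.0066) and OsPRR73 1.26-fold lower at 5 d (adjusted p = 0.0045), each without overlap. At 6 h OsPRR73 (mean 902 in LK, 760 in CK) and OsPRR95 (371 and 306) were also higher in every LK array, without a call. Of all tested probe sets, 6.73% had every LK array above every CK array at 6 h. The part of the clock genes in the results was not tested.

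Plants take up nitrate through membrane transporters, of which the NRT2 family works at low external nitrate, in rice with the partner protein NAR2.1. Nitrate reductase turns nitrate into nitrite, which is reduced further to ammonium, and glutamine synthetase and glutamate synthase then fix ammonium into glutamine and glutamate. Rice roots in flooded soil also take up much ammonium directly, through transporters of the AMT family, and K+ and nitrate often move through the plant together as counter-ions.

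The question put to the data was how the transcripts of these genes differed between starved and replete roots at each time. At 6 h 1 of the 10 tested probe sets was called, against 0.529% of all tested probe sets, and it belonged to OsGDH2. An unadjusted p under 0.05 was reached by 5 of the 10, 4 higher and 1 lower, against 9.26% of all tested probe sets (4.38% higher and 4.88% lower). At 3 d 8 were called, 6 lower and 2 higher in LK, against 14.3% of all (5.75% lower and 8.50% higher). At 5 d all 10 tested probe sets were called, 7 lower and 3 higher, against 23.3% of all (12.8% lower and 10.5% higher). By gene, counting a call in at least 1 probe set, OsGDH2 was higher and the other 6 were lower at both 3 d and 5 d. All tested probe sets were called for 5 of the 7 genes at 3 d. The exceptions were the brightest probe set of OsGDH2 and 1 of Fd-GOGAT. A call means an adjusted p under 0.05 in limma, with the adjustment made over all tested probe sets. The genes were chosen with results of these data known, so the shares over the array stand beside the counts as a description and not as a test.

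The median log2 difference between LK and CK over the 10 probe sets went from 0.15 (6 h) to -0.19 (3 d) and then -0.44 (5 d), beside -0.00, 0.04 and -0.03 over all tested probe sets. Leaving out any one array kept the count at 5 d between 9 and 10, whereas at 3 d it ranged from 1 to 7, with 1 left without CK 3 d replicate 2. It was 4 without CK 3 d replicate 1 or 3 or any of the LK 3 d replicates, and 5 without CK 6 h replicate 2, CK 5 d replicate 3 or LK 5 d replicate 2. The share of called probe sets that were higher at 3 d was 59.6% over the whole array, and 45.7% after quantile normalization or 44.9% after median centring. The directions of the 8 called members did not change under either. In bulk root RNA, fewer cells of a type and less RNA per cell cannot be told apart.

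**Figure D1:**
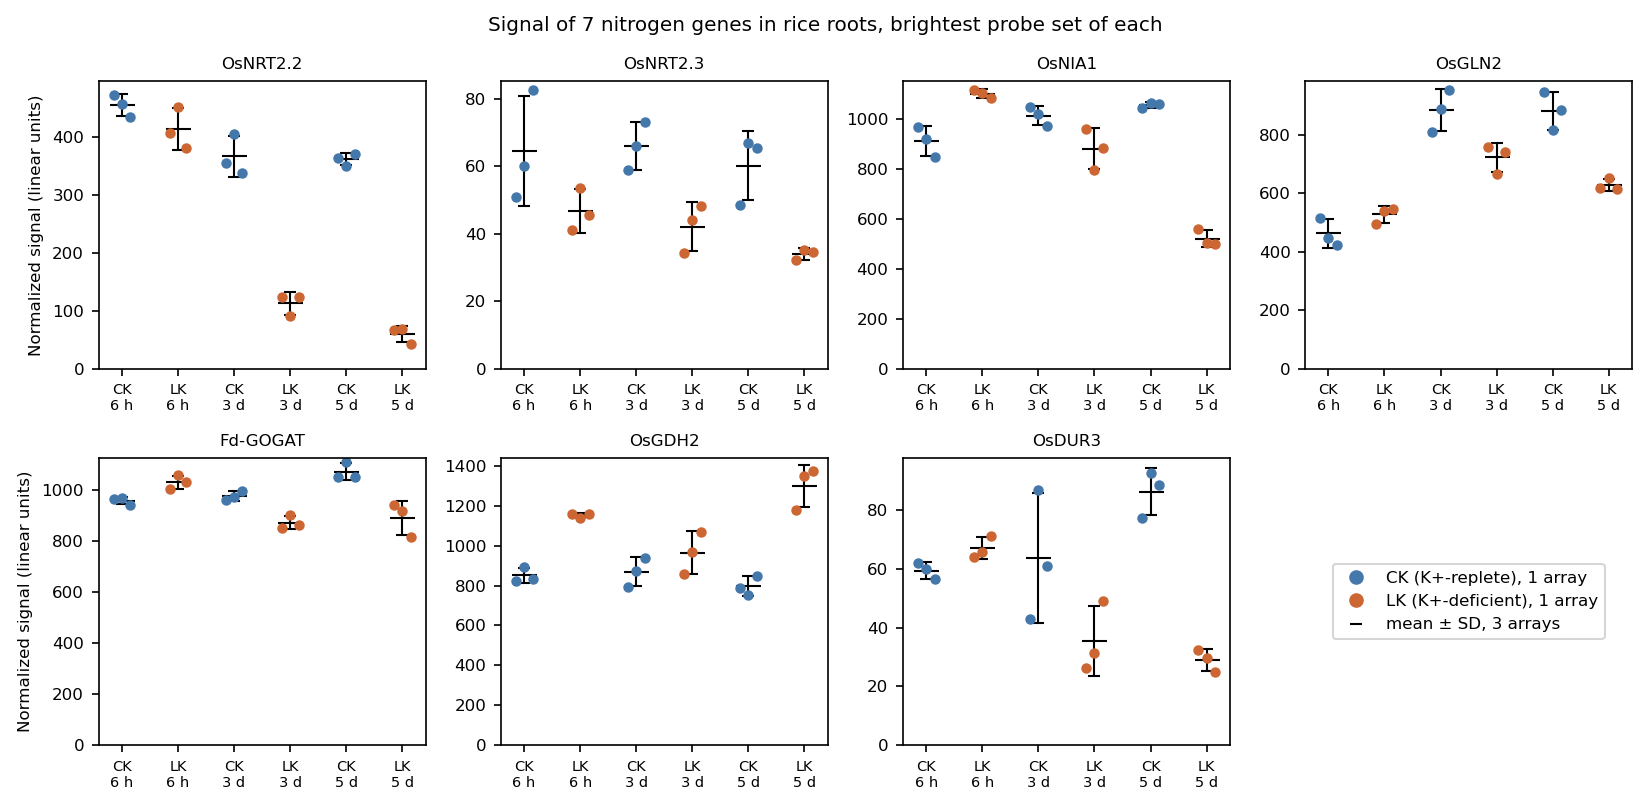
Normalized signal (linear units, axes from 0) of the brightest probe set of each of the 7 genes in the 6 groups. Points are single arrays (blue CK, orange LK), and the bars give mean ± SD of 3 arrays. At 5 d OsNRT2.2 had a CK mean of 362 and an LK mean of 59.4, while OsGDH2 stood at 1300.0 in LK and 797 in CK.

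Among the nitrate transporters, OsNRT2.2 fell furthest. Its probe set (gene LOC4328052, type x_at) read 474, 458 and 436 in CK and 407, 453 and 382 in LK at 6 h. On the 3 d arrays it read 356, 406 and 339 in CK and 125, 90.1 and 124 in LK. At 5 d the CK arrays gave 364, 351 and 371 and the LK arrays 66.6, 68.7 and 43.0. The CK and LK arrays overlapped at 6 h and were far apart at 3 d and 5 d, where every LK array was below every CK array of the study.

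The 6 h difference was 1.10-fold lower in LK and did not pass the test (log2 difference -0.14 ± 0.15, SE, adjusted p = 0.87). At 3 d the signal was 3.25-fold lower (-1.71 ± 0.15, adjusted p = 7.2e-07) and at 5 d 6.10-fold lower (-2.64 ± 0.15, adjusted p = 1.9e-09). Both calls held under all 29 alternative settings, but the size varied. The log2 difference ranged from -1.79 to -1.47 at 3 d and from -2.76 to -2.12 at 5 d. From highest, the group means were 456 ± 19.2 (SD, n = 3) in CK at 6 h, 414 ± 36.1 in LK at 6 h, 367 ± 35.0 in CK at 3 d, 362 ± 10.2 in CK at 5 d, 113 ± 19.9 in LK at 3 d and 59.4 ± 14.3 in LK at 5 d. Arrays of neighbours in that order overlapped among the first 4 groups only. The LK effect itself changed from 6 h to 3 d by -1.57 ± 0.21 (adjusted p = 0.00036) and from 6 h to 5 d by -2.50 ± 0.21 (adjusted p = 9.9e-07). The further step from 3 d to 5 d, -0.93 ± 0.21, passed narrowly (adjusted p = 0.042) and was lost under 20 of 28 alternatives.

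The type of this probe set, x_at, marks probes that can also bind other transcripts. OsNRT2.1, a close copy of OsNRT2.2 and its direct neighbour in the genome annotation with 0 genes between them, had no probe set of its own in the annotation, so the signal may hold both. The probe set of OsNRT2.3 (LOC4324249) is of the same type and was dim. It read 50.7, 60.2 and 82.5 in CK and 40.9, 53.6 and 45.4 in LK at 6 h. The groups overlapped there, and the 1.38-fold lower mean did not pass (log2 difference -0.45 ± 0.18, adjusted p = 0.42).

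At 3 d the OsNRT2.3 signals were 58.9, 66.0 and 73.0 in CK and 34.1, 43.96 and 48.1 in LK. At 5 d they were 48.5, 66.7 and 65.3 in CK and 32.1, 35.2 and 34.5 in LK. Every LK array lay below every CK array at both times. OsNRT2.3 was 1.57-fold lower at 3 d (log2 difference -0.66 ± 0.18, adjusted p = 0.019), a gap that came to 1.77-fold by 5 d (-0.81 ± 0.18, adjusted p = 0.0031). The 3 d call was lost under 5 of 28 alternatives, among them without CK 3 d replicate 2 or 3 or LK 3 d replicate 1, and with the floor raised to 50 both calls were lost (adjusted p = 0.23 at 5 d). CK means at the 3 times lay between 60.2 and 66.0, and the arrays of every pair of neighbouring groups in the order of means overlapped. No change of the LK effect over time was called for OsNRT2.3.

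OsNIA1, which encodes nitrate reductase, moved from a higher to a lower mean in LK over the course. Its main probe set (LOC4345795) gave 969, 921 and 847 in CK and 1116, 1106 and 1083 in LK at 6 h. After 3 d the values were 1048, 1021 and 971 in CK and 960, 797 and 886 in LK. After 5 d they were 1042, 1065 and 1061 in CK and 560, 502 and 501 in LK. The groups did not overlap at any time, with LK above CK at 6 h and below it later.

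The 6 h difference of 1.21-fold did not pass the test (log2 difference 0.27 ± 0.07, adjusted p = 0.087), although it did under 4 of 29 alternatives. The 1.15-fold lower mean at 3 d passed narrowly (-0.21 ± 0.07, adjusted p = 0.049) and was lost under 19 of 29 alternatives. At 5 d the signal was 2.03-fold lower (-1.02 ± 0.07, adjusted p = 9.8e-09), a call kept under all 29. The change of the LK effect was called for every pair of times, at -0.48 ± 0.09 from 6 h to 3 d (adjusted p = 0.0084), -0.82 ± 0.09 from 3 d to 5 d (adjusted p = 0.00028) and -1.30 ± 0.09 from 6 h to 5 d (adjusted p = 2.8e-07), and these 3 calls held under every alternative. CK means were 913 ± 61.3 (6 h), 1014 ± 39.0 (3 d) and 1056 ± 12.2 (5 d), and neither step between them was called. LK at 5 d (521 ± 34.0) stood below all other groups. Another probe set, with signals from 1.06 to 11.5, was too dim to test.

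Glutamine synthetase and glutamate synthase work as a cycle, and OsGLN2 and Fd-GOGAT encode the plastid forms. OsGLN2 (LOC4337272) read 516, 447 and 423 in CK and 495, 539 and 547 in LK at 6 h. The 3 d arrays gave 809.6, 889 and 952 in CK and 758, 666 and 742 in LK. The 5 d arrays gave 945, 816 and 885 in CK and 618, 650.4 and 614 in LK. The groups overlapped at 6 h, and every LK array was below every CK array at 3 d and at 5 d.

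OsGLN2 was 1.14-fold higher in LK at 6 h without passing the test (log2 difference 0.19 ± 0.08, adjusted p = 0.46). It was 1.22-fold lower at 3 d (-0.29 ± 0.08, adjusted p = 0.023) and 1.41-fold lower at 5 d (-0.49 ± 0.08, adjusted p = 0.00030). The 5 d call held under all 29 alternatives, and the 3 d call was lost under 6 of them, including without CK 3 d replicate 2 or 3 or LK 3 d replicate 2. The change of the LK effect from 6 h to 5 d was -0.68 ± 0.12 (adjusted p = 0.00093) and held throughout, whereas that from 6 h to 3 d (-0.48 ± 0.12, adjusted p = 0.029) was lost under 11 of 28. A dimmer probe set of the gene was not tested. Its arrays overlapped at 6 h and 3 d, where its mean was higher in LK (18.4 against 13.1 in CK, and 25.15 against 21.7). On the 5 d arrays it gave 57.6, 68.0 and 27.5 in CK and 20.5, 16.1 and 9.47 in LK, without overlap. The CK mean of this probe set was thus higher at 5 d (51.0) than at 3 d.

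The replete roots themselves differed in OsGLN2 between times. The CK mean was 462 ± 48.3 at 6 h and 883 ± 71.3 at 3 d, a rise of 1.91-fold (0.94 ± 0.08, adjusted p = 5.6e-07), and stayed at 882 ± 64.7 at 5 d. This was the only one of the 10 tested member probe sets called between CK at 3 d and CK at 6 h, against 15.1% of all tested (5.91% higher and 9.18% lower). None was called between CK at 5 d and 3 d by limma, against 9.20% of all (7.56% higher and 1.63% lower). An unadjusted p under 0.05 was reached there by 2, against 26.0% of all. With the study's 1.2-fold cut and limma's unadjusted p under 0.05, in place of the study's dChip p, 2 and 1 member probe sets passed in those comparisons. The share of all tested probe sets under that rule is not given here, so these counts carry no reading. Of the 5 tested shoot markers, 4 were higher in CK at 3 d than at 6 h, CAB2R by 1.90-fold, RCABP69 by 3.74-fold, RCABP89 by 6.81-fold and OsrcaA1 by 1.47-fold, and their part in the OsGLN2 rise was not tested. At 5 d the summed shoot signal was higher in every LK array than in every CK array, and OsGLN2 was lower in every LK array. Much of that sum was CAB2R, which averaged 4412 in LK and 3963 in CK at 5 d. A link between the sum and OsGLN2 was not tested.

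**Figure D2:**
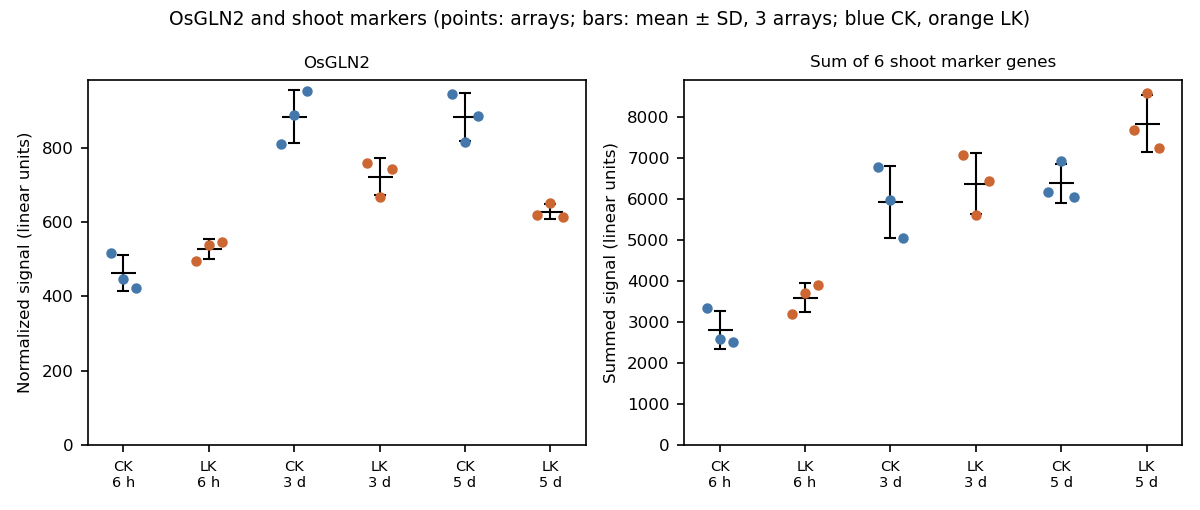
Left, normalized signal of OsGLN2 by group; right, summed signal of 6 shoot marker genes (both linear units, axes from 0; points are arrays, bars mean ± SD of 3 arrays). Both were lowest at 6 h, and at 5 d OsGLN2 was lower in LK than in CK and the shoot sum was higher. A link between them was not tested.

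Fd-GOGAT, the ferredoxin-dependent glutamate synthase, showed the smallest changes of the 7 genes at 5 d. Its brightest probe set (LOC4344164, S2_at) read 963, 968 and 942 in CK and 1005, 1057 and 1030.2 in LK at 6 h. After 3 d the signals were 959, 972 and 997 in CK and 850, 901 and 865 in LK. After 5 d the signals were 1053, 1111 and 1051 in CK and 939, 916 and 816 in LK. The arrays did not overlap at any time, with LK higher at 6 h and lower at 3 d and 5 d.

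The 1.08-fold difference at 6 h did not pass (log2 difference 0.11 ± 0.05, adjusted p = 0.57). The signal was 1.12-fold lower at 3 d (-0.16 ± 0.05, adjusted p = 0.046, lost under 19 of 29 alternatives) and 1.203-fold lower at 5 d (-0.27 ± 0.05, adjusted p = 0.0012, kept under all 29). The LK effect changed by -0.37 ± 0.07 between 6 h and 5 d (adjusted p = 0.0034). Another probe set from the same transcript (S2_a_at) read 341, 319 and 296 in CK and 338, 334 and 303 in LK at 6 h. Its values were 321, 332 and 303 in CK and 298, 267 and 288 in LK at 3 d, and 376, 361 and 332 in CK and 298, 270.2 and 247 in LK at 5 d.

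That probe set overlapped between groups at 6 h and separated later. It was 1.12-fold lower at 3 d, which did not pass (-0.16 ± 0.08, adjusted p = 0.19), and 1.31-fold lower at 5 d (-0.39 ± 0.08, adjusted p = 0.0019). Both probe sets thus had LK below CK at 5 d, and their centred profiles over the 6 groups differed by a root mean square of 0.044 on the log2 scale. The last one (S1_a_at) had signals from 12.9 to 33.4 and was not tested.

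OsGDH2 encodes glutamate dehydrogenase, an enzyme that can release ammonium from glutamate or, in the reverse direction, fix it. It was the only one of the 7 genes called higher in LK. Its brightest probe set (LOC4336554) read 825, 893 and 833 in CK and 1159, 1140.5 and 1160.4 in LK at 6 h. For 3 d the readings were 795, 873 and 939 in CK and 857, 970 and 1069 in LK. For 5 d the readings were 786, 755 and 850.0 in CK and 1177, 1350 and 1373 in LK. LK arrays were above all CK arrays at 6 h and 5 d, and the groups overlapped at 3 d.

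The difference was 1.36-fold at 6 h (log2 difference 0.44 ± 0.08, adjusted p = 0.018), 1.11-fold at 3 d, which did not pass (0.15 ± 0.08, adjusted p = 0.24), and 1.63-fold at 5 d (0.70 ± 0.08, adjusted p = 6.7e-06). The 6 h call was lost under 6 of 29 alternatives, including without CK 6 h replicate 1 or 3 or any of the LK 6 h replicates, and the 5 d call under none of the 29. The LK effect rose from 3 d to 5 d by 0.55 ± 0.11 (adjusted p = 0.023), a call lost under 10 of 28. CK means stayed between 797 and 869 and overlapped, while the LK means were 1153 ± 11.1 (6 h), 965 ± 106 (3 d) and 1300.0 ± 107 (5 d).

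The other probe sets of OsGDH2 were designed on another cDNA of the gene. One (S1_x_at) read 188, 199 and 181 in CK and 325, 229 and 233 in LK at 6 h. It read 168, 194 and 190 in CK and 219, 234 and 273 in LK at 3 d, and 195, 153 and 172 in CK and 301, 262 and 295 in LK at 5 d. LK was above CK without overlap at each time. The folds were 1.38 at 6 h, which did not pass (0.45 ± 0.13, adjusted p = 0.15), 1.31 at 3 d (0.39 ± 0.13, adjusted p = 0.046, lost under 18 of 29 alternatives) and 1.65 at 5 d (0.73 ± 0.13, adjusted p = 0.00040, kept under all 29).

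The dimmer probe set of that cDNA (S1_at) read 50.8, 75.2 and 98.8 in CK and 55.3, 86.7 and 104 in LK at 6 h. At 3 d it read 72.9, 100.4 and 134 in CK and 177, 169 and 210.0 in LK. At 5 d it read 75.3, 68.4 and 69.6 in CK and 97.9, 118 and 161 in LK. The replicates were more scattered than for the brighter probe sets, the groups overlapped at 6 h, and LK was above CK later. The folds were 1.09 (0.13 ± 0.26, adjusted p = 0.95), 1.81 (0.89 ± 0.26, adjusted p = 0.028) and 1.77 (0.79 ± 0.26, adjusted p = 0.036), and the later 2 calls were lost under 6 and 7 of 29 alternatives. Its profile differed from that of the brightest probe set by a root mean square of 0.47 on the log2 scale, whereas that of S1_x_at differed from the latter by 0.077.

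OsDUR3, a transporter that takes up urea at low external concentration, was likewise lower in LK at the later times. Its probe set (LOC4349520), of a type (s_at) that can bind several related transcripts, read 62.0, 59.8 and 56.4 in CK and 64.0, 65.7 and 71.1 in LK at 6 h. At 3 d it read 43.1, 86.8 and 61.0 in CK and 26.2, 31.4 and 48.9 in LK. At 5 d it read 77.2, 92.7 and 88.6 in CK and 32.4, 29.5 and 24.9 in LK. The groups separated narrowly at 6 h with LK higher, overlapped at 3 d and were well apart at 5 d with LK lower.

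The 1.13-fold difference at 6 h did not pass (log2 difference 0.17 ± 0.22, adjusted p = 0.90). OsDUR3 was 1.79-fold lower at 3 d (-0.84 ± 0.22, adjusted p = 0.016), a call lost under 6 of 28 alternatives, including without CK 3 d replicate 2, the highest of its group, or LK 3 d replicate 1 or 2. At 5 d it was 2.98-fold lower (-1.58 ± 0.22, adjusted p = 5.2e-05), kept under all 28 alternatives. Its LK signals there were near the array medians and the size depended on how low signals were treated, with a log2 difference of -0.96 after adding 32 to each signal and -0.78 with a floor of 50. The LK effect changed from 6 h to 5 d by -1.75 ± 0.31 (adjusted p = 0.0014), or by -1.07 and -0.95 in those settings. The CK mean was 59.4 ± 2.84 at 6 h and 86.2 ± 8.01 at 5 d, and the steps between successive CK times were not called.

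**Figure D3:**
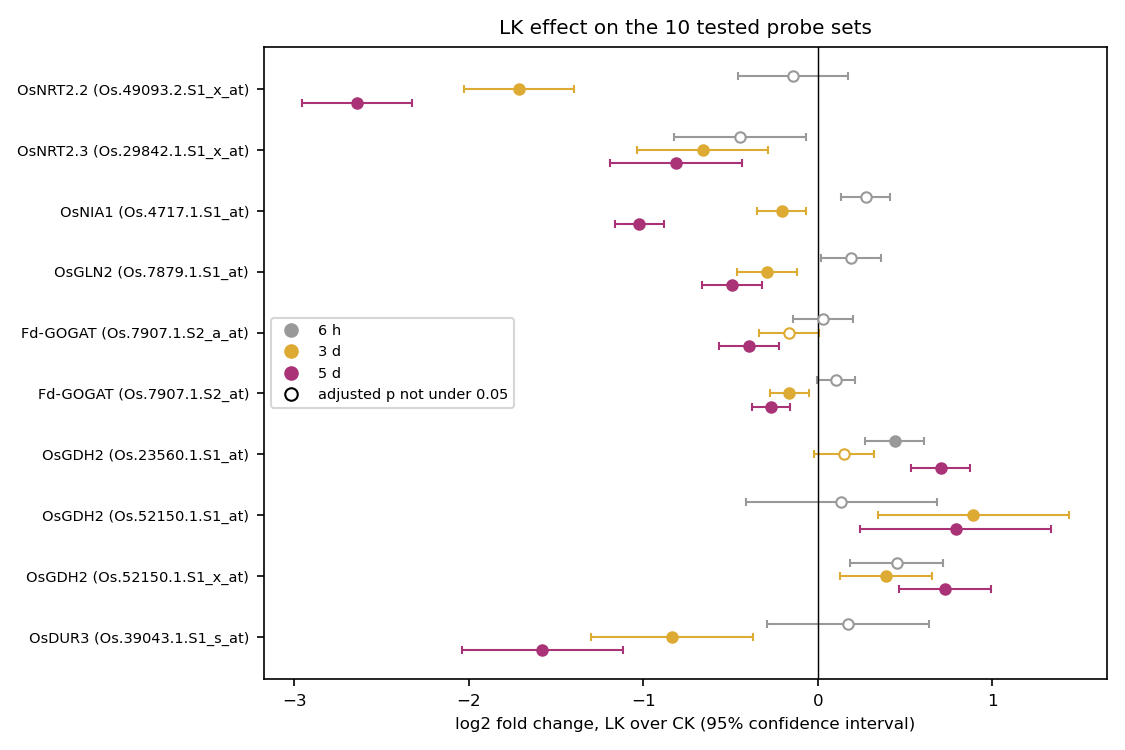
Log2 fold change of LK over CK (horizontal axis) for the 10 tested probe sets at 6 h (grey), 3 d (yellow) and 5 d (purple), with 95% confidence intervals. Filled points have an adjusted p under 0.05: 1 at 6 h, 8 at 3 d and all 10 at 5 d, where those of OsGDH2 lie above 0 and the rest below.

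In the first samples, at 6 h, 5 of the 10 tested probe sets had every LK array above every CK array, against 6.73% of all tested, although 1 was called. They belonged to OsNIA1, Fd-GOGAT, OsGDH2 (the brightest probe set and S1_x_at) and OsDUR3, and none had every LK array below, against 6.49% of all. At 3 d 6 had every LK array below and 2 above, against 11.3% and 18.3% of all, and at 5 d 7 and 3, against 22.7% and 19.3%. Tests of the change of the LK effect called 3 of 10 probe sets from 6 h to 3 d (OsNRT2.2, OsNIA1 and OsGLN2, all downward), against 2.88% of all tested (1.14% downward and 1.74% upward). From 3 d to 5 d 3 were called, OsNRT2.2 and OsNIA1 downward and OsGDH2 upward, against 1.03% (0.374% and 0.656%). From 6 h to 5 d 6 were called, all downward, in OsNRT2.2, OsNIA1, OsGLN2, OsDUR3 and both tested probe sets of Fd-GOGAT, against 10.2% (5.31% downward and 4.85% upward).

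Other genes of the pathway were taken from a list of 24 names, of which 15 had a probe set and 14 could be tested. The names OsNRT2.4, OsNIA2, OsNiR, GLT1, OsASN1 and OsASN2 found no match, which does not show that the array lacks these genes. OsNRT2.1, OsNAR2.1 and OsAMT1;3 were matched but had no probe set in the annotation. The tested genes were ammonium transporters, glutamine synthetases, GLT2, OsGDH1 and OsGDH3. No nitrate transporter, nitrate or nitrite reductase or asparagine synthetase was among them, so the counts do not cover the pathway. At 6 h limma called 1 of the 14 higher and none lower in LK, against 0.270% and 0.258% of all tested probe sets. At 3 d 2 were called higher and 3 lower, against 8.50% and 5.75%, and at 5 d none higher and 6 lower, against 10.5% and 12.8%. By an unadjusted p under 0.05 in limma, 4 were higher and 2 lower at 6 h (against 4.38% and 4.88% of all). At 3 d 3 were higher and 6 lower by that rule (against 17.6% and 10.8%). At 5 d none were higher and 6 lower (against 15.4% and 19.5%). In either direction 28.4% and 34.9% of all tested probe sets passed that looser rule at 3 d and 5 d. Over the 14 genes the median log2 difference went from -0.05 (6 h) to -0.17 (3 d) and then -0.16 (5 d). The 5 d calls comprised 5 ammonium transporters and OsGLN1;1, a cytosolic glutamine synthetase.

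OsAMT3;3, an ammonium transporter, was dim throughout. It read 86.2, 80.4 and 78.1 in CK and 60.2, 67.9 and 67.3 in LK at 6 h, and 51.5, 62.0 and 58.1 in CK and 24.6, 16.3 and 22.8 in LK at 3 d. The 5 d signals were 61.7, 65.2 and 59.9 in CK and 22.8, 26.2 and 21.7 in LK. The later LK arrays were all below their CK arrays and lay at about the array medians, where signal is not clearly above background. The measured log2 differences were -1.45 ± 0.14 for the 3 d arrays (adjusted p = 1.9e-06) and -1.41 ± 0.14 for the 5 d arrays (adjusted p = 1.2e-06), and no fold is read from them.

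The high-affinity ammonium transporter OsAMT1;2 averaged 1851 ± 101 in CK and 1458 ± 137 in LK at 3 d, 1.27-fold lower (adjusted p = 0.024), and 1912 ± 50.7 and 1288 ± 195 at 5 d, 1.48-fold lower (adjusted p = 0.00035). OsAMT2;1 was 1.31-fold and 1.32-fold lower (adjusted p = 0.0025 and 0.0013). OsAMT1;1 and OsAMT3;2 were called at 5 d only, 1.19-fold and 1.28-fold lower (adjusted p = 0.0097 and 0.012). In all, 8 ammonium transporters of the list were tested.

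Among the glutamine and glutamate synthases of the list, OsGLN1;1 averaged 3039 ± 269 in CK and 2299 ± 211 in LK at 5 d, 1.32-fold lower (adjusted p = 0.0015). OsGLN1;2, another cytosolic glutamine synthetase, was 1.15-fold higher at 3 d (adjusted p = 0.015). GLT2, an NADH-dependent glutamate synthase, was higher in LK at 6 h (56.7 ± 4.93 against 38.2 ± 2.80, 1.48-fold, adjusted p = 0.032) and at 3 d (86.6 ± 4.67 against 64.8 ± 8.87, 1.34-fold, adjusted p = 0.019), and at 5 d it averaged 51.0 in LK and 58.8 in CK without a call. The LK effect on GLT2 changed from 6 h to 5 d by -0.78 ± 0.16 (adjusted p = 0.0055).

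Of the close copies of OsGDH2, OsGDH1 averaged 1457 ± 33.5 in LK and 1533 ± 130 in CK at 5 d and OsGDH3 33.2 ± 2.41 and 34.4 ± 3.08, and neither was called at any time. OsNAR2.2, of the partner protein family of the NRT2 transporters, was too dim to test and read 17.7, 15.6 and 23.2 in CK and 8.94, 8.10 and 9.51 in LK at 5 d.

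**Figure D4:**
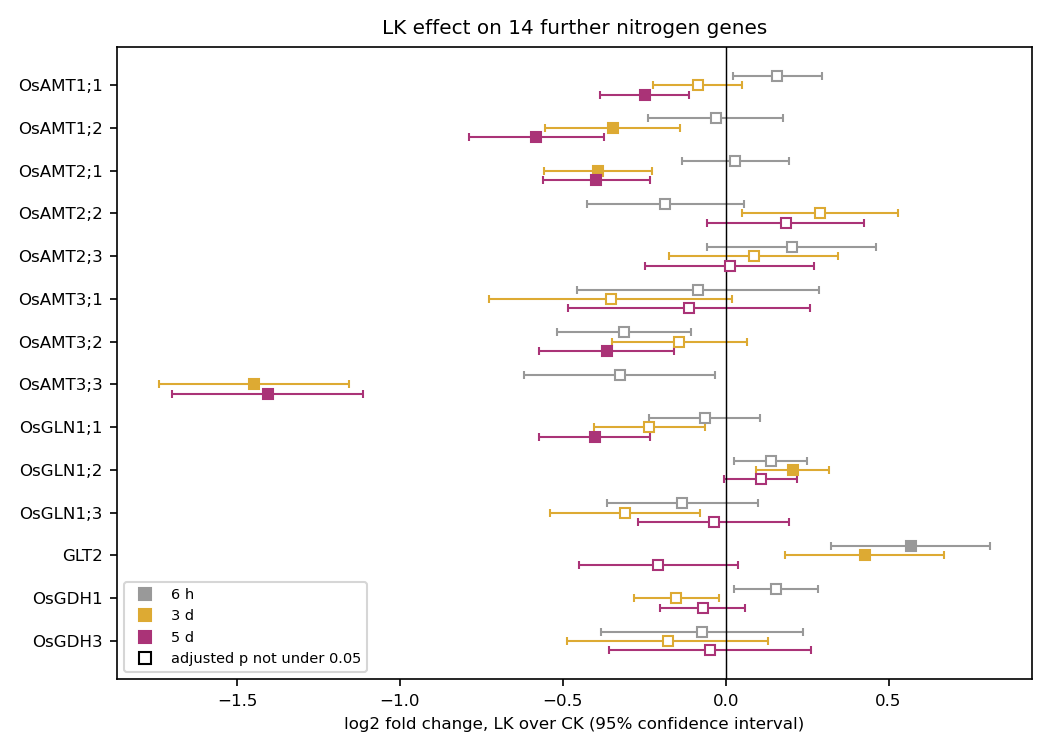
Log2 fold change of LK over CK (horizontal axis) for the 14 tested genes of the wider nitrogen list at 6 h (grey), 3 d (yellow) and 5 d (purple), with 95% confidence intervals and filled points where the adjusted p was under 0.05. The LK signals behind the OsAMT3;3 points at 3 d and 5 d were at about the array medians, and the 6 filled points at 5 d are all below 0.

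The named genes whose mean log2 profile over the 6 groups lay closest to each tested member probe set were sought among 2512 tested probe sets. The measure was the root mean square difference of centred profiles, and 3 genes were taken per member probe set. For OsNRT2.2 they were OsKO5 (0.44), OsAMT3;3 (0.48) and CM-LOX1 (0.53), a distant match beside the spread of 1.12 of OsNRT2.2 around its own mean. For OsNRT2.3 they were OsAPx02 (0.088), OsTPK3 (0.12), which encodes a K+ channel, and OsVIT1 (0.13). For OsNIA1 they were OsSWEET2b, RH2 (both 0.16) and WDR12 (0.17).

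The genes nearest to OsGLN2 were the response regulators OsRR1 (0.11) and OsRR9 (0.13), followed by OsRac7 (0.15). Nearest to the brightest probe set of Fd-GOGAT (S2_at) were OsGRF5 (0.021), OsCAX3 (0.029) and KIN7K (0.030), beside a spread of 0.11 of that probe set itself. Nearest to the brightest probe set of OsGDH2 were OsNAC4 (0.092), OsCRSH2 and OsCAM61 (both 0.11). The other tested probe sets of these 2 genes had other nearest genes. The closest were OsCCC1 (0.026) for Fd-GOGAT S2_a_at, CML16 (0.070) for OsGDH2 S1_at and CL27 (0.089) for OsGDH2 S1_x_at. Nearest to OsDUR3 were OsSWEET2b (0.15), OsCesA1 (0.19) and RH2 (0.21). OsSWEET2b, of the SWEET family of sugar transporters, and RH2 were thus among the closest of both OsNIA1 and OsDUR3. For OsSWEET2b this rested on a different probe set for each, and for RH2 on the same one. These distances describe 6 group means and carry no test.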

How the data were processed

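The authors scanned 18 arrays with GCOS 1.0 (MAS5) and normalized them together in dChip. The expression model and background option are not given in the sources used here. The deposited values were linear signal intensity per probe set. After a floor of 10 and a log2 transform, the brightest 44% of probe sets by mean log2 value were kept (25165, lowest geometric mean 32.2). One limma model (version 3.58.1, R 4.3.3) over the 6 groups gave all contrasts, with an intensity trend and Benjamini-Hochberg adjustment. The code was tested on simulated data. Folds are ratios of mean linear signals. Members and lists were chosen with earlier results of these data known. The text names every probe set of the 7 genes, listed nitrogen genes called in any LK against CK contrast, close copies, and nearest profiles. Of the latter it names 3 for the brightest probe set of each member. Names came from GEO's platform annotation and a gene table of RefSeq: 22436 probe sets had 1 gene, 95 several and 34663 none. List entries known only by locus number could not be matched and were not analysed here. Alternatives changed the filter, normalization, floor, log offset, samples fitted, replicate block, variance trend, call rule and arrays included.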

Additional observations from a re-analysis of the deposited data

Results flagged for a closer look

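For 12 results the effect of LK differed between sampling times by a test of the difference itself (limma, interaction contrast, adjusted p under 0.05 over all tested probe sets, values as log2 change ± SE). They were 3 of 10 probe sets from 6 h to 3 d, 3 from 3 d to 5 d and 6 from 6 h to 5 d. Of all tested probe sets 2.88%, 1.03% and 10.2% were called. In 11 the effect moved downward with time, but these results are not separate. The change from 6 h to 5 d is the sum of those over the shorter intervals, and Fd-GOGAT enters with both tested probe sets. OsNRT2.2 changed by -1.57 ± 0.21 from 6 h to 3 d, -0.93 ± 0.21 from 3 d to 5 d and -2.50 ± 0.21 from 6 h to 5 d. OsNIA1 changed by -0.48 ± 0.09, -0.82 ± 0.09 and -1.30 ± 0.09 over the same intervals. OsGLN2 changed by -0.48 ± 0.12 from 6 h to 3 d and -0.68 ± 0.12 from 6 h to 5 d. From 6 h to 5 d the probe sets of Fd-GOGAT changed by -0.42 ± 0.11 (S2_a_at) and -0.37 ± 0.07 (S2_at), and OsDUR3 by -1.75 ± 0.31. The exception in direction was OsGDH2 (its brightest probe set), whose LK effect changed by 0.55 ± 0.11 from 3 d to 5 d. With 3 arrays a group, no group was large enough for a search for single outlying arrays.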

How the results depend on the processing

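The 5 d count of 10 became 8 of 10 with a floor of 50, was 10 of the 13 tested with no filter, and was 9 to 10 with one array left out. With no filter the call of OsGDH2 (S1_at) was lost, and a probe set too dim for the main test was called instead. All 8 member probe sets that remained among the brightest 30% were called. The 6 h count of 1 became 0 with no filter, 2 with quantile normalization, 2 with the replicate block across time points and 4 under the study threshold, and 0 to 2 with one array left out: 0 without CK 6 h replicate 1 or 3 or any LK 6 h replicate, 2 without LK 3 d replicate 2. The 3 d count of 8 became 1 with no filter, 3 with a floor of 50, 3 with only the arrays compared, 5 with the replicate block within time points and 5 with no intensity trend, and 1 to 7 with one array left out. The count of 3 for the change from 3 d to 5 d became 1 with no filter, 1 with only the arrays compared, 1 with no intensity trend, and 1 to 3 with one array left out (1 without CK 3 d replicate 2 or 3, LK 3 d replicate 1, CK 5 d replicate 1 or 2, or LK 5 d replicate 3). With one array left out, the changes from 6 h to 3 d and from 6 h to 5 d ranged from 2 to 4 and from 5 to 6. CK at 3 d against 6 h stayed at 1 to 1 and CK at 5 d against 3 d at 0 to 1 (1 without CK 3 d replicate 2). Under the study threshold these were 2 and 1. That threshold was its 1.2-fold cut with limma's unadjusted p under 0.05, and shares over all tested probe sets are not given for it. The cause of these shifts was not tested.

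Replicate numbers are not stated to mark shared batches. Deviations of CK and LK arrays of the same number correlated between -0.09 and 0.26 (median 0.098), and those of different numbers between -0.40 and 0.36 (median -0.07). The arrays were treated as unpaired because the labels give the replicate number no meaning across treatments. A correlation above 0.1 was seen in 4 of the 9 same-number pairs and 3 of the 18 other pairs. A hint of pairing in the data, not the design, is that 11 of 18 arrays correlated best with their own number, out of 3 candidates each. Every 5 d array did so, but only some of the 6 h and 3 d arrays. The same pairs were scored from the CK and the LK side, so the 18 are not independent. With the replicate block within time points the counts at 6 h, 3 d and 5 d were 1, 5 and 10. With the block across time points they were 2, 8 and 10.

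Over 43 single results and 1227 alternative values, 1076 kept direction and side of the threshold, 142 lost the call, 6 gained one and 3 turned direction. Those 3 were uncalled 6 h values: Fd-GOGAT (S2_a_at) at -0.023 without CK 6 h replicate 3 (-0.023 to 0.080 with one array left out), and OsGDH2 (S1_at) at -0.12 without CK 6 h replicate 1 and -0.061 without LK 6 h replicate 3 (-0.12 to 0.39). Signals of OsNRT2.3, OsDUR3 and OsAMT3;3 in LK at 5 d lay close to the array medians, and the number of arrays limits the precision throughout.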
